A study of Homo sapiens with 4 samples.

Results

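The 9 liver cytochrome P450 genes described here are CYP1A1, CYP1A2, CYP2E1, CYP3A4 and CYP3A5, which act on drugs and other foreign compounds, CYP3A7, the fetal liver form of the CYP3A family, and CYP7A1, CYP8B1 and CYP27A1, enzymes of bile acid synthesis. They are 9 of 15844 protein-coding genes whose transcription start site (TSS) could be placed. Their peaks were taken as all peaks centred within 50 kb of a member's TSS, together with every peak to which the authors gave a member as the nearest gene. The rule found 29 of 52192 listed peaks for shControl cells in DMSO and 32 of 49783 in rapamycin, and for shARID1A cells 33 of 45700 in DMSO and 30 of 44760 in rapamycin. Merged where they overlapped, these peaks formed 42 of the 69838 regions of the series.

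The peaks came from ATAC-seq, which marks accessible DNA by transposase insertion, in Huh7, an established human liver cancer line grown in medium with serum. Cells expressed a control short hairpin RNA (shControl) or a hairpin against ARID1A, a subunit of the BAF chromatin remodeller (shARID1A), and each kind was left in DMSO or given 100 nM rapamycin, an mTORC1 inhibitor, for 6 h. Every group was 1 library of 50000 cells, so no difference between groups has a replicate check and none was tested. Where 4 values stand in a row, they follow the order shControl DMSO, shControl rapamycin, then shARID1A in DMSO and in rapamycin. No source used here says whether the hairpin lines were clones or pools. A hairpin against the ARID1A transcript leaves the gene in place, so peak lists do not check the knockdown. Read depth was unknown. Peak numbers were complete in shControl DMSO and shARID1A rapamycin, while shControl rapamycin skipped 1093 numbers and shARID1A DMSO 6666. A peak absent from these 2 lists may therefore be a row that was not listed, and skipped numbers are given beside the regions they touch. Of the liver markers with a placed TSS, promoters of HNF4A and FOXA1 had a peak in every list, those of ALB, SERPINA1, FGB and AFP (4 of 7) had none in any list, and APOA2 had one in every list except shControl DMSO. Of 6 markers of leukocytes, endothelium and fibroblasts with a placed TSS, CD14 had a promoter peak in every list, CD3D in shControl DMSO alone, and the other 4 in none.

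Cytochrome P450 enzymes are haem proteins that oxidise lipophilic molecules. In adult liver the drug-metabolising members are induced through ligand-activated factors: the aryl hydrocarbon receptor AHR acts on CYP1A1 and CYP1A2, and the nuclear receptors PXR (NR1I2) and CAR (NR1I3) act on the CYP3A genes. CYP3A7 is the main CYP3A enzyme of the fetal liver and gives way to CYP3A4 after birth. CYP7A1 starts the classical pathway of bile acid synthesis and sets its rate, CYP8B1 directs it to cholic acid, and CYP27A1 is the mitochondrial sterol 27-hydroxylase that starts the alternative pathway. Accessibility of a promoter is not a measure of transcript level, and transcripts were not analysed here.

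The promoters of the CYP3A genes and of the CYP1A pair are shown because members of the same family differed in whether a peak lay at the promoter. Each line gives the 250 bases before the RefSeq TSS on GRCh38.p14, 5′ to 3′ on the gene's strand. Positions count back from -1, the base next to the TSS. For the CYP3A genes capitals mark AGTTCA, the PXR-type receptor motif, and AGGTCA, the general nuclear receptor motif, each on either strand, and the TATA box TATAAA.
CYP3A4, chr7:99784185-99784434, minus strand: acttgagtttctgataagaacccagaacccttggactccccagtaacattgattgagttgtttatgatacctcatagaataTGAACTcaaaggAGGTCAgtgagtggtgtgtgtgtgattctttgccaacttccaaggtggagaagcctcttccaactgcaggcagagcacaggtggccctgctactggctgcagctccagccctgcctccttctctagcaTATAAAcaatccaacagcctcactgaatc
CYP3A7, chr7:99735197-99735446, minus strand: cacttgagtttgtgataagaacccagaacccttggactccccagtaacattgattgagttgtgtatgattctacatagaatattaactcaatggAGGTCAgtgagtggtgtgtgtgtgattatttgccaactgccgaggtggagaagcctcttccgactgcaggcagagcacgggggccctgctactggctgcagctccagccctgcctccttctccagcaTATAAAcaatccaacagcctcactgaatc
CYP3A5, chr7:99679997-99680246, minus strand: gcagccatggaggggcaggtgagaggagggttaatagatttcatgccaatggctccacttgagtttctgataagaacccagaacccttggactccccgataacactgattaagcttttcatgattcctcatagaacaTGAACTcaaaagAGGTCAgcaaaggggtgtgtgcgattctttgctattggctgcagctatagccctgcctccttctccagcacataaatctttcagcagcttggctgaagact
For the CYP1A genes capitals mark TATAAA and GCGTG, the core of the AHR response element, each on either strand; in CYP1A2 matches of TATAAA on both strands overlap.
CYP1A1, chr15:74725529-74725778, minus strand: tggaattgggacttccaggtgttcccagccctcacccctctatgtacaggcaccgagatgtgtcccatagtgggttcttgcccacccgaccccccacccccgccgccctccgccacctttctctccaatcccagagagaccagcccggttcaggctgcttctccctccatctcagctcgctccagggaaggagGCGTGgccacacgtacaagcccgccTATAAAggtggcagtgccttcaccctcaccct
CYP1A2, chr15:74748595-74748844, plus strand: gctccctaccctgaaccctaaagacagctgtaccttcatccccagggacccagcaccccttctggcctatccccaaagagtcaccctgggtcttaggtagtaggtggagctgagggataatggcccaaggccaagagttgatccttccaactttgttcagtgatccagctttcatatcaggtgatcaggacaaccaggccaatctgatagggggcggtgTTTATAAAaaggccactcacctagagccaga

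Promoter peaks, centred within 1 kb of the TSS, were present at CYP1A1, CYP3A5 and CYP27A1 in all 4 lists and at none of CYP1A2, CYP2E1, CYP3A4, CYP3A7, CYP7A1 and CYP8B1 in any list. The members thus held 3 promoter peaks of 9 in each list, 2 among the 5 xenobiotic genes, 0 for the fetal gene and 1 among the 3 bile acid genes. Over all protein-coding genes the share with a promoter peak was 63.5%, 64.0%, 64.5% and 63.6%. No member changed its promoter state between lists, as was the case for 92.9% of all genes. This held for the limit of 1 kb. With 500 bp the count was 1, 2, 1 and 2 members, since the centre of the CYP3A5 peak lay within it in shControl rapamycin alone and that of the CYP1A1 peak in shARID1A rapamycin alone. With 2 kb it was 3, 3, 4 and 3, through a CYP3A7 peak in shARID1A DMSO.

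**Figure D1:**
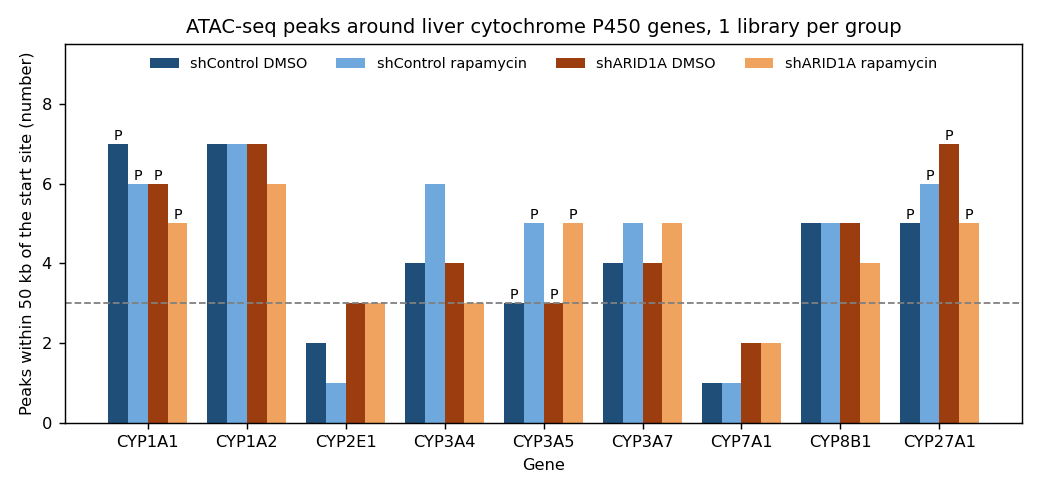
Number of peaks centred within 50 kb of the TSS of each gene (vertical axis) in the 4 libraries (bar colours), with P over a bar where the list had a promoter peak; the dashed line is the median of all protein-coding genes, 3 peaks in every list. CYP1A1, CYP3A5 and CYP27A1 carry the letter P in all lists, CYP1A2 stands at 6 or 7 peaks without one, and CYP7A1 at 1 or 2.

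The CYP27A1 promoter peak was the strongest of the 3 in every list. By the authors' deposited score it ranked at 9.40%, 5.35%, 12.1% and 10.3% of the list, where low percentages are the strongest peaks. It was 1548, 1317, 1624 and 1785 bp wide and covered the TSS at 218782147 on chromosome 2 and all 250 bases before it. The CYP1A1 peak ranked at 15.9%, 11.5%, 20.4% and 26.8% by score, stronger in both shControl lists than in both shARID1A lists. By peak width it ranked at 25.9%, 28.5%, 25.6% and 19.4%, an order that turns round, with both shARID1A ranks stronger. The peak lay upstream of the TSS at 74725528 on chromosome 15 in 3 lists and reached over the TSS in shARID1A rapamycin, with 177, 225, 225 and 250 of the bases printed above inside it. The CYP3A5 peak ranked at 26.3%, 24.8%, 23.7% and 15.2% by score, strongest in shARID1A rapamycin, and at 19.98%, 30.2%, 27.9% and 22.3% by width, strongest in shControl DMSO. This peak lay mainly downstream of the TSS at 99679996 on chromosome 7, was annotated to intron 1, and took in 2, 52, 0 and 15 of the 250 bases upstream. The ranks of these peaks spanned 6.74 points for CYP27A1, 15.3 for CYP1A1 and 11.2 for CYP3A5 over the 4 lists, against a median span of 14.4 points over 30352 regions with 1 peak in every list.

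Of the promoters of CYP3A4, CYP3A5 and CYP3A7, that of CYP3A5 alone had a peak, and its sequence was also the one that aligned least completely. CYP3A4 and CYP3A7 were identical at 236 of 249 aligned bases (94.8%), CYP3A4 and CYP3A5 at 162 of 192 (84.4%) and CYP3A5 and CYP3A7 at 158 of 193 (81.9%). Of the 250 bases of each window, 1, 58 and 57 had no aligned partner in these pairs. In CYP3A4 the PXR-type motif, read on the other strand as TGAACT, began at position -169 and the general receptor motif at -157, so that 6 bases separate them, and CYP3A5 held the same pair from position -113. This pair, searched for after the sequences had been seen, occurred in 3 of 15842 protein-coding promoters (0.0189%), the third being ITGB1BP2. CYP3A7 held the general motif at -156 and no PXR-type motif. TATAAA began at position -29 in CYP3A4 and CYP3A7. The CYP3A5 window held no exact match and reads cataaa near that position. The share of all promoters with TATAAA was 9.23%, with AGTTCA 7.21% and with AGGTCA 10.3%. The CYP3A5 peak took in 2, 52, 0 and 15 of the bases next to the TSS. The motif pair, from -113 to -96, thus lay outside it in every list. Whether these motifs bear on the presence of a peak was not tested. No source used here says how reads matching several CYP3A copies were placed, so values within this family are less certain than at unique loci.

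GCGTG occurred once in CYP1A1, from position -57, in no other member with a sequence, and in 39.2% of all promoters. TATAAA occurred in CYP1A1 from -32, CYP1A2 from -29 and CYP2E1 from -30. AGGTCA was found outside the CYP3A genes in CYP2E1, from -181. CCAAT (34.5% of all promoters) was in CYP1A1, CYP1A2, CYP2E1 and CYP3A5, and GTTAAT, the HNF1 motif (4.88%), in CYP3A5 and CYP3A7. GGGCGG, the GC box (56.0%), occurred in CYP1A1, CYP1A2 and, on each strand once, CYP27A1, and AGTTCA also in CYP27A1. AAGGTCA (2.79%), an extended receptor motif, TGTTTAC, the forkhead motif (2.25%), and TGACTCA, the AP-1 motif (3.17%), were in none of the 7 windows. Each motif was searched on both strands of the 250 bases, and a match is a description of the letters only.

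Of the 7 members with a promoter sequence, CYP27A1 alone had more CpG than the median promoter. Its promoter window of 300 bases (250 before and 50 after the TSS) held 29 CpG dinucleotides at 68.7% GC, against a median of 22 CpG and 62.7% GC over 15842 promoters. CYP1A1 held 10 CpG, CYP2E1 7, CYP3A7 3, CYP3A5 2, CYP1A2 1 and CYP3A4 0. CYP1A2, CYP2E1, CYP3A4, CYP3A5 and CYP3A7 were among the 3961 promoters with the fewest CpG (0 to 8), of which 16.3%, 16.4%, 16.1% and 15.4% had a peak. Among the 3960 promoters next in CpG, which include CYP1A1, the share was 66.8% in shControl DMSO. At the 10 CpG of CYP1A1 itself, 33.5% of 254 promoters had a peak in every list. Of the 5 CpG-poor members CYP3A5 had a promoter peak, and among the 615 promoters with 2 CpG the share with a peak in every list was 6.02%. Of the CpG-poor members 1 of 5 thus had a promoter peak, beside shares of 15.4% to 16.4% among promoters of like CpG content.

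**Figure D2:**
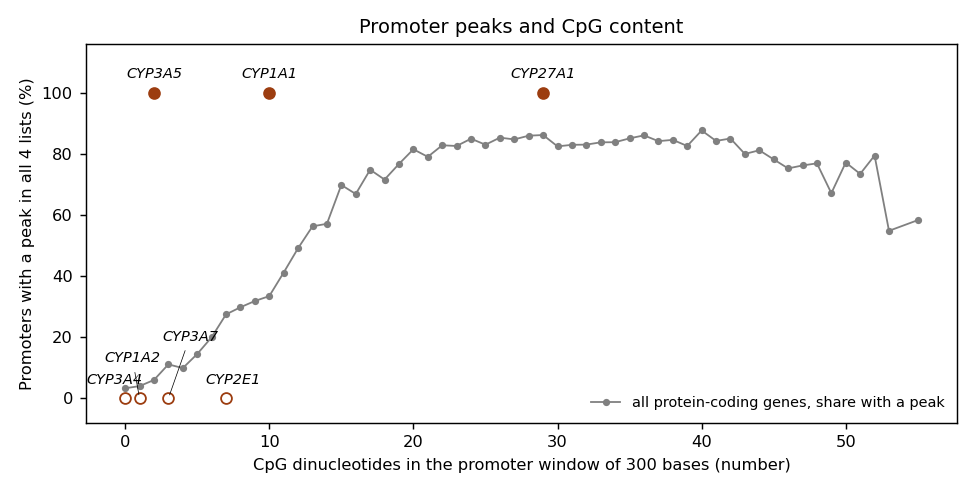
Share of protein-coding promoters with a peak in all 4 lists (vertical axis, percent) by the number of CpG dinucleotides in the promoter window (grey line, numbers with 20 or more promoters). Filled circles at 100% are members with a peak in all lists, open circles at 0% those with none; CYP3A5, with 2 CpG, stands where few promoters had a peak, and CYP27A1, with 29, where most had one.

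The start site used matters for CYP2E1, which oxidises ethanol and small solvents. A strong region lay at -7.05 kb from its RefSeq TSS (chromosome 10, 133519838 to 133520787; negative distances are upstream) and ranked at 19.98%, 17.2%, 19.8% and 15.5%. These 4 ranks lay within 4.53 points, and 84.5% of regions present once in every list had a span as large. The authors' deposited distances placed the same region at 29 bp from a CYP2E1 start site at 133520406 in shControl DMSO and at -94 bp in shARID1A DMSO, but measured it from the start site at 133527363 in the rapamycin lists. For the CYP1A1 promoter peak the deposited distances were -2984, -557, -592 and -2910 bp. These numbers refer to start sites near 74723097 or 74725494, and the peaks themselves overlapped in all lists. A count by the deposited distances gave 4, 3, 4 and 2 members with a promoter peak. CYP2E1 entered this count in both DMSO lists, and CYP1A1 entered it in shControl DMSO through another, weak peak downstream of the RefSeq TSS and left it in shARID1A rapamycin.

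The median member had 4, 5, 4 and 5 peaks within 50 kb, against a median of 3 over all protein-coding genes in every list. Counted once each, 29, 32, 33 and 30 peaks lay in the 9 windows. The shARID1A DMSO list, which was shorter than both shControl lists but skipped 6666 numbers, held the most. In the stronger 50% of each list 16, 17, 12 and 16 of these peaks remained, so that shARID1A DMSO then held the fewest. That cut depends on the skipped numbers. Counted as weaker peaks, they would bring in the regions at +32.6 kb of CYP1A2 (46.3%) and +35.9 kb of CYP8B1 (45.7%). The CYP7A1 region at +21.5 kb (48.9%) would enter too. Counted as stronger peaks, they would push out those at -26.5 kb of CYP27A1 (53.3%) and -44.7 kb of CYP3A4 (51.9%). Of the peaks, 9, 10, 8 and 8 lay near several members, since the CYP3A windows overlap one another and so do those of CYP1A1 and CYP1A2. Summed over genes, the xenobiotic members had 23, 25, 23 and 22 peaks, the fetal gene CYP3A7 4, 5, 4 and 5, and the bile acid members 11, 12, 14 and 11.

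The CYP3A members lie in the same orientation on chromosome 7, with 104188 bp between the TSS of CYP3A4 and CYP3A5 and CYP3A7 between them. Their shared neighbourhood held 8, 11, 8 and 9 peaks. CYP3A4, the main drug-metabolising P450 of adult liver, had a distal region at -10.9 kb in every list (99794689 to 99795437). It ranked at 17.8%, 23.7%, 36.8% and 27.6%, so both shARID1A ranks were weaker than both shControl ranks. A span of 19.0 points as here was reached by 37.8% of regions present once in every list. Ranked by peak width, the region stood at 58.2%, 54.5%, 54.95% and 55.8%, so the split between shControl and shARID1A did not hold. Upstream enhancers that respond to PXR or act constitutively in liver are described for CYP3A4, and whether this region is among them was not tested. Nearer the gene, peaks at -4.62 kb (99788598 to 99789016, rank 79.3%) and at 23.8 kb in the last intron of a CYP3A4 transcript (99760180 to 99760511, rank 71.6%) were listed in shControl rapamycin alone. shARID1A DMSO skips a number in each of these intervals.

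CYP3A7 had no region closer than 5 kb in all lists. An intronic region 5.22 kb downstream of its TSS (99729560 to 99730400) ranked at 55.2%, 39.9%, 59.2% and 52.4%. A second intronic region, 14.9 kb downstream (99719735 to 99720955), ranked at 73.5% and 52.2% in the shControl lists and at 41.9% in shARID1A rapamycin. It was missing from shARID1A DMSO, which skips 2 numbers there. A region at -5.51 kb (99739911 to 99741509) ranked at 64.6%, 86.2% and 88.0% in the first 3 lists and was absent from shARID1A rapamycin, a list without skips. Weak peaks in intron 1 (99732988 to 99733541, rank 85.5%, shARID1A DMSO) and at -7.82 kb (99742820 to 99743223, rank 85.2%, shARID1A rapamycin, with a number skipped in shARID1A DMSO) belonged to 1 list each. No region for which CYP3A7 was the closest member ranked above 39.9% in any list, while the CYP3A5 promoter peak and the CYP3A4 upstream region were stronger than that in all lists.

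CYP3A5, whose level in human liver varies with a common splice variant, had a wide region at -14.3 kb besides its promoter peak (99693223 to 99695340, in the last intron of a CYP3A7 transcript and nearest to the pseudogene CYP3A51P). It ranked at 23.9%, 23.5%, 28.3% and 25.2%, a span of 4.81 points. Its width was 1801 to 2056 bp. A region at -5.51 kb (99685328 to 99685677) was listed in shARID1A rapamycin alone at rank 94.2%, with a number skipped in shControl rapamycin. A region at 48.4 kb, in the last exon of the zinc finger gene ZSCAN25 (99631291 to 99631953), was present in both rapamycin lists, at 93.6% in shControl and 74.9% in shARID1A, and in neither DMSO list. It was 1 of 42 regions (2.38%) with that pattern, which 1.56% of all regions had. A region at -44.7 kb from CYP3A4, in CYP3A43, a further family member, ranked at 44.7%, 41.1%, 44.9% and 56.6% by its strongest peak; the peak at the CYP3A43 promoter itself ranked at 86.3%, 93.3% and 82.8% in the first 3 lists and was absent from shARID1A rapamycin.

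**Figure D3:**
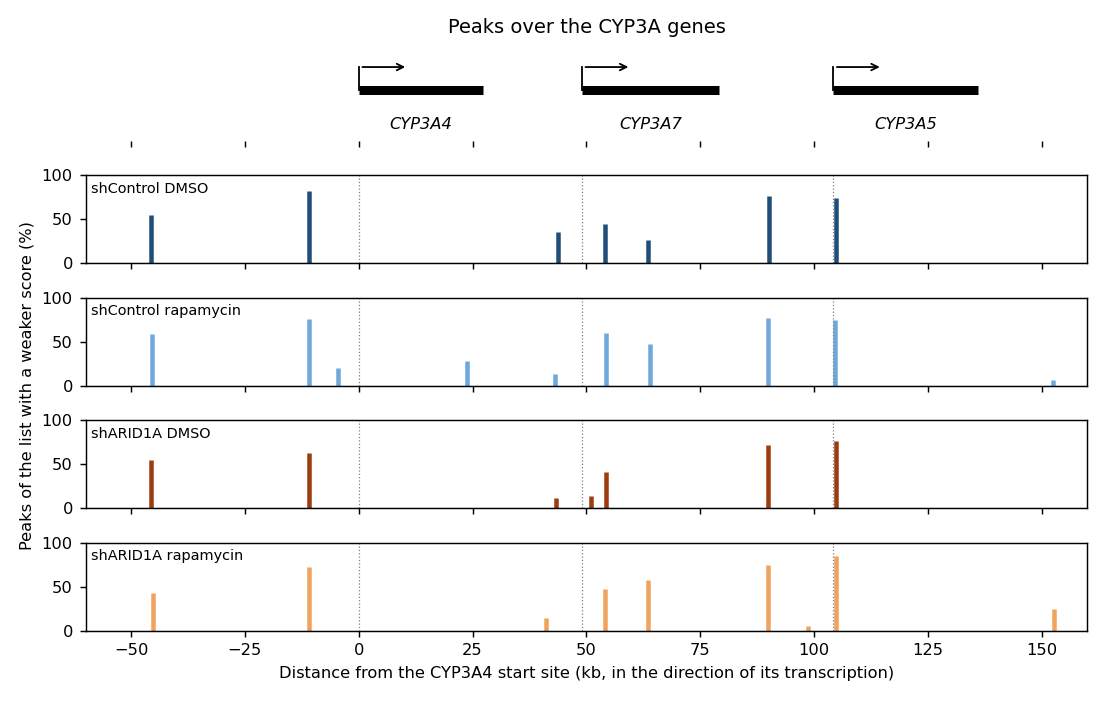
Peaks around the CYP3A genes in the 4 libraries, by distance from the CYP3A4 TSS in kb (horizontal axis); arrows give the direction of transcription, bar height the percentage of the list's peaks with a weaker score, and overlapping peaks of all lists were merged with the strongest drawn. The bars at the CYP3A5 start site, between CYP3A5 and CYP3A7, and upstream of CYP3A4 recur in every list, and no bar stands at the start sites of CYP3A4 and CYP3A7.

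CYP1A1 and CYP1A2 are transcribed away from each other, with 23317 bp between their TSS. The spacer that separates them held a region at -5.68 kb from CYP1A1 (chromosome 15, 74730678 to 74731748) that was present in all lists and differed in rank more than most. It ranked at 14.1%, 42.2%, 57.8% and 32.3%, and was thus among the strong peaks of untreated control cells and in the middle of the other lists. A span as large as its 43.7 points was found in 3.59% of regions present once in every list. With rapamycin the rank weakened by 28.1 points in shControl and moved by -25.5 points, to a stronger rank, in shARID1A. Were all skipped numbers of shARID1A DMSO weaker peaks, its rank there would be 50.4% and the second difference -18.1 points. By peak width the region ranked at 36.6%, 23.1%, 45.9% and 46.7%, so that with rapamycin in shControl it moved the other way.

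CYP1A2, whose enzyme metabolises caffeine, had no peak nearer than 11 kb in any list. A region at 11.7 kb (74760227 to 74760934) was weak, at 68.0%, 94.97% and 88.9% in the first 3 lists, and absent from shARID1A rapamycin. Beyond it lay regions at 19.9 kb (74768354 to 74769235; 49.8%, 59.6%, 65.4% and 38.9%) and 22.4 kb (74770974 to 74771593; 40.8%, 28.4%, 30.1% and 33.2%), towards the kinase gene CSK. The CSK promoter region 32.6 kb from CYP1A2 ranked at 73.3%, 70.2%, 53.1% and 58.6%, and both shARID1A ranks were stronger there. By peak width it ranked at 25.4%, 56.3%, 26.8% and 83.8%, without that split. A CSK intronic region next to it (74782377 to 74783775) was absent from shControl DMSO alone and ranked at 74.0%, 88.6% and 74.9% elsewhere. The weak peak at 1.51 kb inside CYP1A1 (74723870 to 74724170, rank 89.2%), which the deposited distances count as promoter, was in shControl DMSO alone, and the promoter region of EDC3, a decapping factor gene, 29.2 kb from CYP1A1, ranked at 26.5%, 33.3%, 22.0% and 27.7%.

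**Figure D4:**
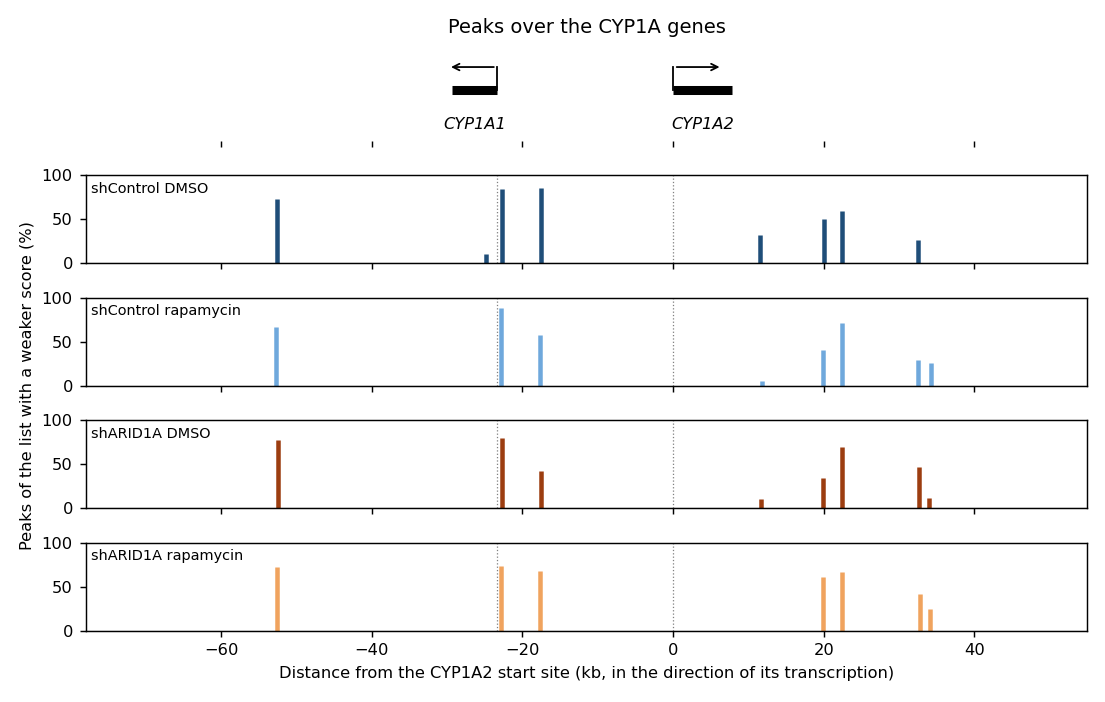
Peaks around CYP1A1 and CYP1A2 in the 4 libraries, by distance from the CYP1A2 TSS in kb, with bar height giving the percentage of the list's peaks with a weaker score. The CYP1A1 promoter bar is tall in every list, the bar between the genes is tallest in shControl DMSO, and no bar stands at the CYP1A2 start site.

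CYP2E1 had 2, 1, 3 and 3 peaks within 50 kb and CYP7A1 1, 1, 2 and 2, as few as or fewer than any other member in each list. For CYP2E1 all of them lay upstream. A region at -29.7 kb (133497349 to 133497992) was present in both shARID1A lists, at 62.0% in DMSO and 57.0% in rapamycin, and in neither shControl list, with no number skipped there. Peaks found in 1 list were at -15.2 kb in shControl DMSO (133511895 to 133512457, rank 78.1%), at -49.3 kb in shARID1A DMSO (133477936 to 133478259, 85.3%) and at -46.2 kb in shARID1A rapamycin (133481041 to 133481339, 75.6%).

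CYP7A1 (chromosome 8, TSS at 58500163) had no peak closer than 21 kb in any list. The closest region lay at 21.5 kb, beyond the end of the gene (58477973 to 58479449), and ranked at 38.0%, 46.7%, 56.1% and 45.5%. A region at -34.96 kb (58534804 to 58535438), nearer to SDCBP, was present in both shARID1A lists, at 67.9% in DMSO and 80.3% in rapamycin. It was absent from both shControl lists, with no number skipped there. This region and the one near CYP2E1 were the 2 of 42 (4.76%) present in both shARID1A lists alone, a pattern of 1.81% of all regions. The number present in both shControl lists alone was 0 of 42, where 5.22% of all regions had that pattern. All 4 peaks concerned were in the weaker 50% of their lists.

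CYP8B1, on chromosome 3, had no promoter peak, and its closest region, at -5.28 kb in intron 2 of KRBOX1 (42880602 to 42881720), ranked at 34.2%, 29.7%, 22.8% and 25.4%, with both shARID1A ranks stronger than both shControl ranks. By peak width it ranked at 31.8%, 27.9%, 47.7% and 47.3%, so that both shARID1A ranks were weaker. A region at 46.3 kb (42829105 to 42830057) ranked at 36.3%, 57.6%, 88.5% and 72.6%, a span of 52.2 points that 0.936% of regions reached, and the widest among the members' regions. By peak width it ranked at 30.3%, 68.3%, 74.3% and 45.2%, with shARID1A rapamycin then stronger than shControl rapamycin. A region at 20.1 kb, annotated to the end of CYP8B1 (42855379 to 42856083) ranked at 56.9%, 57.7%, 82.2% and 85.0%, and one at 35.9 kb (42839573 to 42840345) at 67.4%, 68.3%, 52.3% and 41.7%. In both of these the ranks of the shControl lists lay close together and apart from the shARID1A ranks, in opposite directions. By peak width neither kept its split. The region at 20.1 kb ranked at 73.0%, 62.5%, 73.5% and 52.2% by width, and that at 35.9 kb at 69.3%, 46.3%, 61.6% and 65.8%. A region at -30.6 kb, at exon 1 of ZNF662 (42905955 to 42907061), ranked at 81.2%, 95.3% and 76.0% and was absent from shARID1A rapamycin.

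CYP27A1 had 5, 6, 7 and 5 peaks within 50 kb. In intron 1, a region at 24.1 kb (218805569 to 218806875) ranked at 33.5%, 21.9%, 31.2% and 21.3%, stronger in both rapamycin lists than in both DMSO lists. By peak width it ranked at 11.3%, 13.4%, 22.2% and 24.3%, weaker with rapamycin in each kind of cell. A region of intron 1 at 17.2 kb (218798854 to 218799845), weaker by score, ranked at 58.1%, 74.9% and 96.8% and was absent from shARID1A rapamycin. Upstream, at the end of the neighbouring gene TTLL4, a region at -26.5 kb (218755133 to 218756224) ranked at 18.8% and 29.2% in shControl and at 46.5% and 45.3% in shARID1A. A region in TTLL4 at -36.7 kb (218744812 to 218746113) also ranked weaker in both shARID1A lists, at 51.1% and 47.4% against 87.2% and 66.4%. By peak width that split held at -36.7 kb, with ranks of 38.6%, 12.8%, 86.4% and 43.0%. It did not hold at -26.5 kb, with 26.8%, 29.1%, 26.3% and 59.8%. The last TTLL4 region, at -48.2 kb (218733584 to 218734393), was listed in shControl rapamycin at 30.3% and in shARID1A DMSO at 71.7%, and in neither other list. Peaks at the end and in an intron of PRKAG3, at 39.3 kb (218821267 to 218821664, 94.7%) and 45.4 kb (218827312 to 218827688, 79.1%) were in shARID1A DMSO and in shARID1A rapamycin alone.

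**Figure D5:**
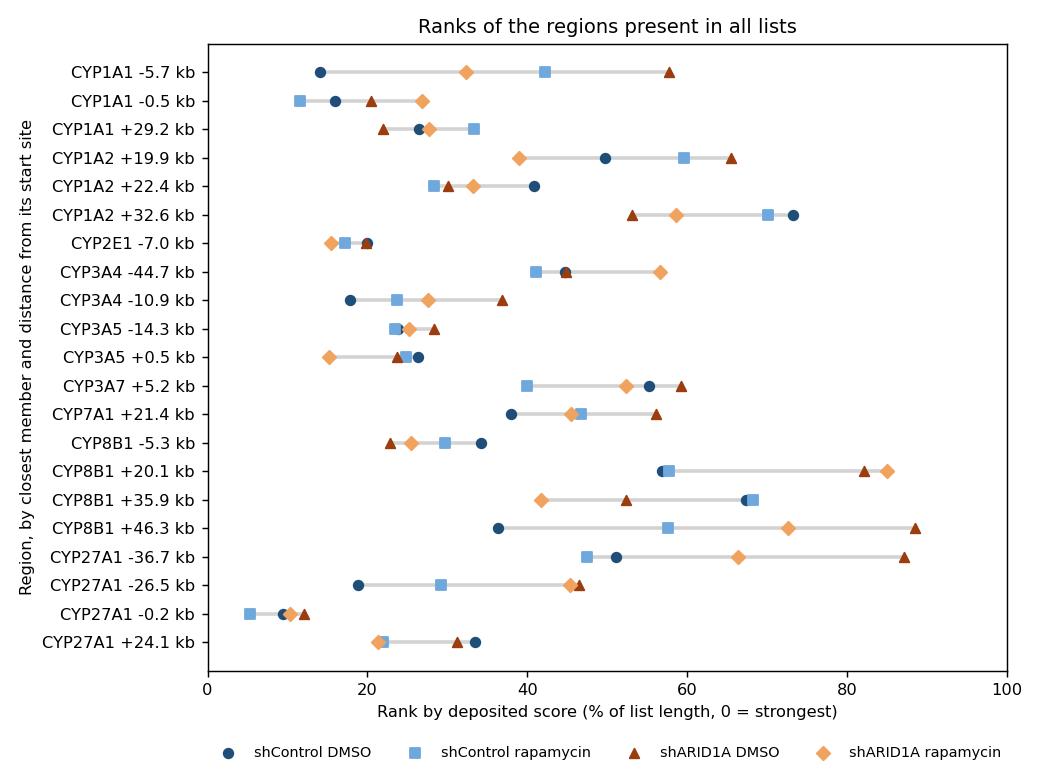
Rank by deposited score, in percent of the list's length with 0 the strongest (horizontal axis), of the 21 regions present in all 4 lists, named by the closest member and the distance from its TSS; markers are the libraries and grey lines their span. The CYP2E1 region at -7.05 kb, the CYP27A1 promoter and the CYP3A5 region at -14.3 kb have short lines, and the CYP1A1 region at -5.68 kb and the CYP8B1 region at +46.3 kb the longest.

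Of the 42 regions, 21 were present in all lists, where 45.2% of all regions were, and 11 (26.2%) in 1 list, against 29.3%. A peak without an overlapping peak in the other list is called lost or gained. With knockdown in DMSO 3 of 29 member peaks were lost (10.3%, exact binomial 95% interval 2.19 to 27.4, counting error only), where 27.6% of all peaks were, and 7 of 33 gained (21.2%, 8.98 to 38.9), where 17.7% were. With knockdown in rapamycin 8 of 32 were lost (25.0%, 11.5 to 43.4) against 26.7% of all peaks, and 6 of 30 gained (20.0%, 7.71 to 38.6) against 17.9%. With rapamycin in shControl 2 of 29 were lost (6.90%, 0.846 to 22.8) against 21.7%, and 5 of 32 gained (15.6%, 5.28 to 32.8) against 18.5%. With rapamycin in shARID1A 8 of 33 were lost (24.2%, 11.1 to 42.3) against 21.2%, and 6 of 30 gained (20.0%) against 19.3%. The general share lay inside the members' interval in each of these except the loss with knockdown in DMSO, where 27.6% was just above the upper limit of 27.4. With an overlap of 50% of the shorter peak required, 5 of 29 were lost there (17.2%, 5.85 to 35.8) against 29% of all peaks, inside the interval. Peaks of one sample are not replicates, and the comparisons share libraries.

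Counted over regions with 1 peak in each list compared, a shift of 20 points or more to a weaker rank was found with knockdown in DMSO in 8 of 24 member regions (33.3%), against 12.8% of all regions, and a shift to a stronger rank in 1, against 4.42%. The 8 were those at -5.68 kb of CYP1A1, +11.7 kb of CYP1A2, -5.51 kb of CYP3A7, +20.1 and +46.3 kb of CYP8B1, and -36.7, -26.5 and +17.2 kb of CYP27A1. Of these, 5 had a bile acid gene as the closest member, as did 11 of the 24 regions compared. For those at -36.7 kb of CYP27A1 and at +20.1 and +46.3 kb of CYP8B1 the authors' nearest gene was not a member. None of the 8 was a member's promoter, and neither were 21 of the 24. The shares over all regions include promoters, and shares over distal regions alone are not given here. Counting all skipped numbers of shARID1A DMSO as weaker peaks left 5 of 24 (20.8%), against 5.62% of all regions. Ranking by peak width in place of the score gave 5 of 24, against 14.5% of all regions, but these were not all among the 8. By width the regions at -5.68 kb of CYP1A1, +11.7 kb of CYP1A2, +20.1 kb of CYP8B1 and -26.5 kb of CYP27A1 dropped out. The region at +5.22 kb of CYP3A7 entered, at 39.9% in shControl DMSO and 67.7% in shARID1A DMSO. With knockdown in rapamycin 1 of 23 was weaker, against 12.4% of all, and 2 were stronger, against 5.35%. The region weaker in both was that at +20.1 kb of CYP8B1. With rapamycin in shControl 4 of 25 were weaker, against 7.84%, and 1 stronger, against 4.96%. With rapamycin in shARID1A 0 of 23 were weaker, against 5.64%, and 3 stronger, against 4.66%. The larger share with knockdown in DMSO rests on the shControl DMSO and shARID1A DMSO lists, and was 1 of 23 with the other pair of libraries; the difference was not tested.

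Related genes, taken as lists, differed in how many of their promoters had a peak. Over all protein-coding genes 60.5% had a promoter peak in all lists and 32.5% in none, and the state was alike in all lists for 92.9%. Of 33 other P450 genes with a placed TSS, 13, 13, 13 and 12 had a promoter peak, 9 of them in all lists and 19 in none. CYP2S1 and CYP3A43 lacked one in shARID1A rapamycin, CYP4F11 in shControl rapamycin, CYP27C1 in shControl DMSO, and TBXAS1, the thromboxane synthase, in shARID1A DMSO, which skips 1 number there. Of 16 regulators and electron donors of P450 enzymes 13, 14, 14 and 12 had a promoter peak, 11 in all lists and 1 in none. The promoter peak of PXR (NR1I2) was in both shARID1A lists alone, at 84.5% and 77.8%, and that of the bile acid receptor FXR (NR1H4) in both shControl lists alone, at 73.5% and 92.9%. RXRA, the common partner of these receptors, had one in shControl rapamycin (95.5%) and shARID1A DMSO (81.3%), and AHRR, the AHR repressor, in every list except shARID1A rapamycin. Most of these were weak peaks, and AHRR ranked at 53.0%, 54.0% and 41.8%. The share of all promoters with each of these patterns is not given here. Of 15 other bile acid genes 9, 10, 9 and 9 had a promoter peak, 9 in all lists and 5 in none, and SLC27A5, a bile acid CoA ligase gene, had a weak one (99.5%) in shControl rapamycin alone.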

How the data were processed

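ATAC-seq peak lists of 4 libraries, 1 per group, were used. The submitters' processing notes name BWA, MACS2 2.0 and GRCh38; no source used here gives settings, duplicate handling or transposase offset. Per the file headers, a row holds a peak's position, annotation, nearest gene, distance to a TSS and score. The authors' deposited score has no stated scale (lowest value 1.30 to 1.31) and was used only to rank peaks within a list, ties at their mean rank.

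TSS and promoter sequences came from a RefSeq table of GRCh38.p14, which held 7 of the 9 members. For CYP7A1 and CYP8B1 the gene end was used, with the strand read from the authors' distances. Of the other P450 genes 33 of 48, of regulators 16 of 20 and of bile acid genes 15 of 18 matched, and the rest were not analysed here. Peaks were placed by their centre, promoter peaks within 1 kb and neighbourhoods within 50 kb of the TSS. Peaks overlapping by 1 bp were shared. Promoters were aligned globally without end gap penalties. Overlap and merging were tested on simulated data. Python 3.11.15, pandas 2.3.3, NumPy 2.4.6, SciPy 1.17.1, Biopython 1.88 and matplotlib 3.10.9 were used. The naming rule covered all members, their regions absent from some lists, their strongest distal region, and list genes whose promoter state differed; other regions present in all lists, and the markers with a peak in all lists or in none, were named after their values were seen. The members, lists and motifs were chosen with earlier results of these data known; the pair of receptor motifs, AGGTCA and 4 alternatives were added after seeing the files.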

Additional observations from a re-analysis of the deposited data

Results flagged for a closer look

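The members held 2 regions for which rapamycin went opposite ways in the 2 kinds of cell, by 20 rank points or more in each or by presence; neither difference was tested. The region at -5.68 kb from CYP1A1 changed by 28.1 rank points in shControl, to a weaker rank, and by -25.5 in shARID1A, to a stronger one. It was 1 of 20 member regions (5%) with 1 peak in every list, against 0.745% of 30352 such regions in all. With no limit on size, shifts of opposite sign were found in 11 of 20 member regions, against 48.4% of all. With skipped numbers of shARID1A DMSO counted as weaker peaks the CYP1A1 change in shARID1A was -18.1 points, under the limit, and 0 of 20 member regions were left. By width its rank in shControl was 36.6% in DMSO and 23.1% with rapamycin, and in shARID1A 45.9% and 46.7%, so the directions by score did not hold. The region at -48.2 kb from CYP27A1, in TTLL4, appeared with rapamycin in shControl, at rank 30.3%, and disappeared with rapamycin in shARID1A, where it had stood at 71.7% in DMSO. This pattern was found in 1 of 42 member regions (2.38%) and in 1.73% of all regions.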

How the results depend on the processing

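No paired analysis was possible because every group held 1 library. Of 108 recomputed counts 69 stayed within 1.5 times the reported value. The number of members with a promoter peak stayed at 3 with equal numbers of top-ranked peaks, with the stronger 50% of each list and with any base of the peak within 1 kb. It was 1, 2, 1 and 2 with a limit of 500 bp and 3, 3, 4 and 3 with 2 kb (shControl in DMSO and rapamycin, then shARID1A). Peaks around members numbered 9 in each list within 10 kb, 53, 55, 56 and 46 within 100 kb, and 16, 17, 12 and 16 in the stronger 50%. The 12 of shARID1A DMSO depends on the skipped numbers of that list. Within 10 kb 1 peak was lost and 1 gained with knockdown in DMSO, 2 and 2 with knockdown in rapamycin, 1 and 1 with rapamycin in shControl and 2 and 2 with rapamycin in shARID1A. Requiring an overlap of 50% gave 5 lost with knockdown in DMSO (17.2% against 29% of all peaks), and 5 lost (17.2% against 23.5%) and 8 gained (25% against 20.3%) with rapamycin in shControl. Equal list lengths gave 5 lost with knockdown in rapamycin (17.9% against 21.1%). With skipped numbers counted as weaker peaks, rank shifts numbered 5 weaker and 2 stronger with knockdown in DMSO, 1 stronger with knockdown in rapamycin, and 1 weaker and 0 stronger with rapamycin in shARID1A; counted as stronger peaks they left 0 stronger with knockdown in DMSO. Ranked by width, with the share over all regions in brackets, knockdown in DMSO had 5 weaker (20.8% against 14.5%) and 2 stronger (8.33% against 10.1%), and knockdown in rapamycin 5 weaker (21.7% against 15.5%). Rapamycin in shControl had 7 weaker (28% against 14%) and 5 stronger (20% against 11.6%), and rapamycin in shARID1A 2 weaker (8.70% against 12.5%) and 6 stronger (26.1% against 10.7%). Among promoter peaks alone CYP27A1 ranked between 17.0% and 34.5%, CYP1A1 between 34.0% and 62.0% and CYP3A5 between 41.5% and 60.1%. The alternatives on start sites, peak edges, promoter peaks of other genes and skipped numbers were chosen after seeing the data. Read depth was unknown, so an absent peak may be one under the calling limit.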
